A study of Mus musculus with 6 samples.

Results

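Fn1, Mgp, Postn, Sparc, Dcn, Lum, Bgn, Tnc and Fbn1, which encode proteins of the extracellular matrix, and Vim, which encodes the filament protein vimentin inside the cell, were followed across the cell types of the mouse kidney. The 10 genes were chosen by symbol, and each symbol matched 1 of the 33696 genes in the deposited tables. Droplet single-cell RNA sequencing with a 3′ kit (10x Genomics) was done on dissociated kidney, 1 library per mouse, for 3 sham animals and 3 that received DOCA-salt. The DOCA-salt mice carried a pellet of 50 mg deoxycorticosterone acetate, a mineralocorticoid, and drank 1% NaCl for 21 days. By the study's methods all mice were male C57BL/6, aged 8 to 10 weeks when purchased, before surgery and treatment. Only the DOCA-salt mice had their left kidney removed, while controls underwent surgery without it. Nephrectomy, DOCA and salt thus differ together between the groups and cannot be told apart here. Values are unique molecular identifiers (UMIs), each standing for 1 captured RNA molecule, and levels are UMIs per 1000000 UMIs of the same cells (CPM).

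The extracellular matrix is the protein scaffold between cells, and in the kidney its build-up between tubules is the tissue change called fibrosis. Fibronectin (Fn1) is an adhesive glycoprotein on which other matrix proteins assemble. Matrix Gla protein (Mgp) needs vitamin K for its maturation and is known as an inhibitor of calcification in vessel walls. Decorin (Dcn), lumican (Lum) and biglycan (Bgn) are small leucine-rich proteoglycans that bind collagen fibers. Periostin (Postn), tenascin C (Tnc) and SPARC (Sparc) are matricellular proteins, which act on cells more than they bear load, and fibrillin 1 (Fbn1) forms the microfibrils around elastic fibers. Vimentin (Vim) is not secreted and is a usual mark of mesenchymal, endothelial and white blood cells as opposed to mature tubular cells.

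The libraries held 11058 to 14449 barcodes and 93172739 to 137819127 UMIs, and 2282 to 3569 barcodes per library had over 50% mitochondrial UMIs and were left out. After filters and doublet removal 55630 cells remained, 7701 to 9933 per mouse, in 56 clusters, of which all but 2 took the name of a cell type from marker genes. Names are those of the closest marker list ("fibroblast" stands for fibroblast-like, and so on). Members of the gene set took no part in clustering or naming. Of the unnamed ones, cluster 29 had 616 of its 624 cells in DOCA-salt mouse 2 and was led by genes of several cell types (Umod, Slc8a1, Slc12a1, Col1a1, Slc12a3). Cluster s18, led by C3, Ptgds, Cp and Gpc3, had 84 to 145 cells per DOCA-salt mouse and 2 to 14 per sham mouse. Pairs of libraries shared 33 to 69 barcodes. Podocytes numbered 2 to 11 cells per sham mouse and 0 to 1 per DOCA-salt mouse. Neutrophils were fitted on 2 against 2 mice, since sham mouse 1 and DOCA-salt mouse 3 had fewer than 10 of them.

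The DNA just upstream of Fn1 and Mgp is shown because these 2 genes had the largest changes of the 10 in the whole kidney. Both lie on the minus strand (GRCm39, GENCODE annotation), Fn1 at chr1:71624673-71692419 and Mgp at chr6:136849433-136852821. The 250 bases before the start of the main transcript are printed 5′ to 3′ as transcribed, chr1:71692420-71692669 for Fn1 and chr6:136852822-136853071 for Mgp, with motif matches in capitals.
Fn1: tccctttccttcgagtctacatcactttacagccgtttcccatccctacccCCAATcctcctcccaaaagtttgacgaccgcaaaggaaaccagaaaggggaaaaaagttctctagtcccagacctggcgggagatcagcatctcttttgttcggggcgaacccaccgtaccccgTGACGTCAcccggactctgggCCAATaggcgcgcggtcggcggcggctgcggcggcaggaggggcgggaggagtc
Mgp: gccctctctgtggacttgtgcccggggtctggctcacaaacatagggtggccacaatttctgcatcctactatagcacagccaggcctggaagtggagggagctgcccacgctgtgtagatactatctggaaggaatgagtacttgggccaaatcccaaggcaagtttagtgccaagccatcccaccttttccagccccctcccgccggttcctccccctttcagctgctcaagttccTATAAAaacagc
The capitals in Fn1 are CCAAT at 199 to 195 and 54 to 50 bases upstream and TGACGTCA, the cyclic AMP response element, at 75 to 68. In Mgp they are TATAAA at 12 to 7. In the same window of 21431 genes, TGACGTCA was present in 1.69%, CCAAT in 36.6% and TATAAA in 8.08%. The motifs were searched on both strands except TATAAA, which was searched only in the direction of transcription. TGACGTCA was found in 1 member and TATAAA in 1. CCAAT was found in 3 members (Fn1, Fbn1 and Vim), the CArG box in 1 (Fbn1, against 1.4% of all genes) and GGGCGG in 2 (Fn1 and Bgn, against 36.3%), where the Fn1 match is not in capitals. The letters TGANTCA (6.17% of genes) and the glucocorticoid and mineralocorticoid response element (0.0467%) had no match in any member's window. No member overlapped another gene on its own strand, and 5 overlapped 1 on the opposite strand (Fn1 with Apol7d, Postn with Gm31095, Tnc with 8030451A03Rik, Fbn1 with Gm9913 and Vim with Gm54102). Whether the counting used strand is not given in the sources used here.

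All 10 members were higher in the DOCA-salt kidneys when the cells of each mouse were summed, and for each the groups did not overlap. Of all 19658 genes tested, 11.5% were called higher (edgeR quasi-likelihood test, adjusted p below 0.05), and 26.6% had every DOCA-salt mouse above every sham mouse. The members' median change was 2.92 on the log2 scale, against -0.02 over all genes tested. The members were chosen with earlier results of these data known, so these values describe them and test no enrichment. Because these are sums over cells, more cells of a type and more RNA per cell cannot be told apart in them.

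**Figure D1:**
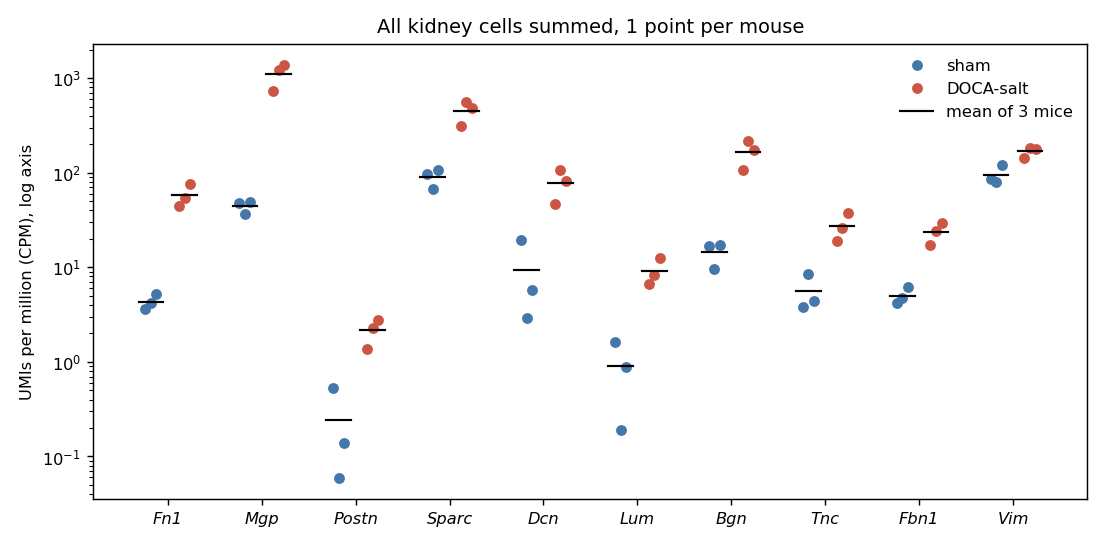
Levels of the 10 genes in all kidney cells summed, as CPM on a log axis, with 1 point per mouse (blue sham, red DOCA-salt) and a bar at the mean of 3 mice. For each gene the 3 red points lie above the 3 blue ones, by the widest margin for Mgp (36.7 to 48.7 against 724 to 1385 CPM) and the narrowest for Vim (80.2 to 120 against 142 to 184).

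Mgp was at 48.2, 36.7 and 48.7 CPM in the sham mice and at 724, 1227 and 1385 CPM in the DOCA-salt mice. The change was 4.52 ± 0.26 on the log2 scale (SE, adjusted p = 0.000183, edgeR). Fn1 was at 3.58, 4.15 and 5.25 CPM in sham and 44.4, 54.2 and 76.0 in DOCA-salt mice, a change of 3.63 ± 0.23 (adjusted p = 0.000183, edgeR). In both genes the lowest DOCA-salt mouse stood far above the highest sham mouse.

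The proteoglycans were higher as well. Bgn went from 14.4 ± 4.27 to 166.9 ± 55.7 CPM (SD, n = 3 mice each), a log2 change of 3.40 ± 0.31 (SE, edgeR adjusted p = 0.000523). Lum, at 0.898 ± 0.717 CPM in sham, reached 9.15 ± 3.11 in DOCA-salt mice, a change of 3.19 ± 0.57 (edgeR adjusted p = 0.00771), which was 2.71 without sham mouse 2 and 3.97 without sham mouse 1. Dcn was uneven among the sham mice, at 19.6, 2.90 and 5.71 CPM, and was at 46.4, 106 and 80.7 in the DOCA-salt mice. Its change was 2.91 ± 0.64 (edgeR adjusted p = 0.0173) and missed the threshold without sham mouse 3 (2.66, adjusted p = 0.0589). Without sham mouse 1 it was 4.04 and without sham mouse 2 it was 2.48, both past the threshold.

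Among the matricellular proteins, Postn rose from 0.243 ± 0.253 to 2.15 ± 0.716 CPM, a log2 change of 2.92 ± 0.58 (edgeR adjusted p = 0.0119). It was at 0.531, 0.0589 and 0.138 CPM in the sham mice, and the change was 4.30 without sham mouse 1 and 2.47 without sham mouse 2. Sparc rose from 90.8 ± 20.9 to 451.6 ± 123.7 CPM (2.19 ± 0.24, edgeR adjusted p = 0.00116), and Tnc from 5.56 ± 2.53 to 27.6 ± 9.496 CPM (2.19 ± 0.33, edgeR adjusted p = 0.00401). Fbn1, the microfibril protein, rose from 5.00 ± 1.04 to 23.5 ± 6.07 CPM (2.11 ± 0.22, edgeR adjusted p = 0.000895). Vim had the smallest change of the 10, from 95.4 ± 21.5 to 167.5 ± 22.1 CPM, or 0.69 ± 0.17 (edgeR adjusted p = 0.0299). The Vim call was lost without sham mouse 1 (adjusted p = 0.115), DOCA-salt mouse 2 (0.0819) or DOCA-salt mouse 3 (0.0954), and with cells of at most 20% mitochondrial UMIs (0.0651).

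Fibroblasts were more numerous among the cells of the DOCA-salt mice. The sham mice gave 21, 6 and 9 of them and the DOCA-salt mice 218, 297 and 307, which is 0.127% ± 0.0744 against 2.91% ± 0.391 of cells (SD, n = 3 each, exact permutation test, two-sided, p = 0.1, the smallest that 3 against 3 mice allow). In DOCA-salt kidneys fibroblasts held 92.0% of all Mgp UMIs, 94.5% of Lum, 89.6% of Dcn, 87.5% of Postn, 78.4% of Bgn, 75.4% of Fbn1, 71.8% of Fn1 and 62.8% of Tnc. They held less of Sparc (42.0%) and Vim (20.9%), of which endothelium held 38.7% and 38.4%.

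In sham kidneys several of these genes were held mostly or largely by other cells, while most UMIs of Lum, Postn and Dcn were again in fibroblasts. Endothelium held most of the Fbn1 UMIs (70.0%), of Vim (70.3%) and of Sparc (59.2%), and 49.1% of Fn1 and 47.5% of Mgp. The parietal epithelium, the cells that line the capsule of the glomerulus, held 85.9% of the Tnc UMIs from 212 cells. The few fibroblasts held 87.6% of the Lum UMIs, 80.3% of Postn and 63.3% of Dcn. A further 16.6% of the Dcn UMIs came from intercalated cells of the collecting duct and 10.5% from the 6 sham cells of cluster 29. These shares pool unequal mice, since sham mouse 1 gave 1771 of the Dcn UMIs, with all 245 of cluster 29, and sham mice 2 and 3 gave 197 and 372. In sham mouse 2 intercalated cells held 103 Dcn UMIs and fibroblasts 71.

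**Figure D2:**
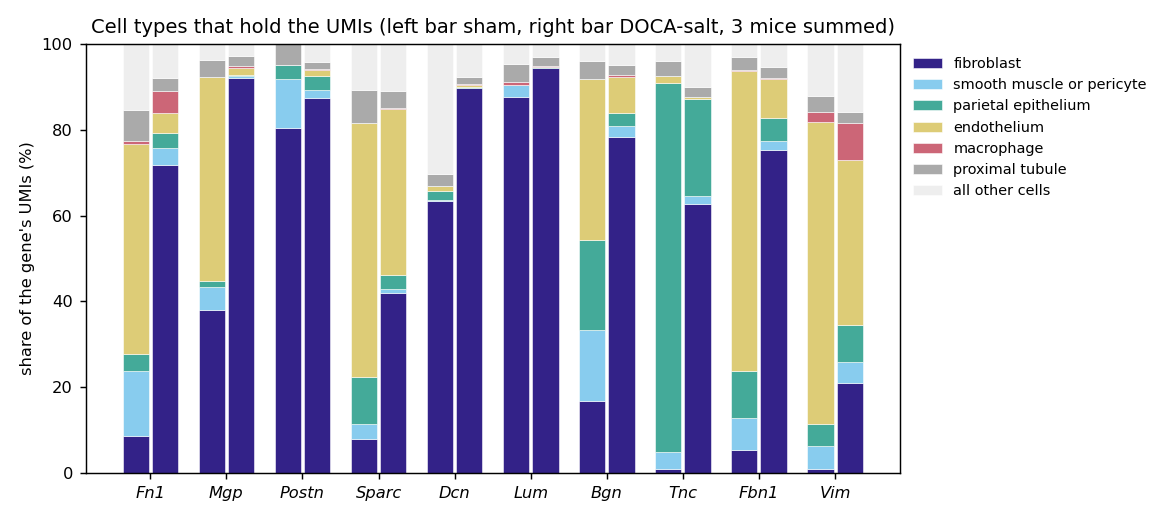
Share of each gene's UMIs (percent, 0 to 100) held by 6 cell types and by all other cells, with the 3 mice of a group summed (left bar sham, right bar DOCA-salt). The dark fibroblast segment takes 71.8% of Fn1 and 92.0% of Mgp in DOCA-salt kidneys against 8.54% and 38.1% in sham kidneys.

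With fibroblasts left out of the sums, 5 of the 10 members were still higher at an adjusted p below 0.05, against 8.58% of all genes tested in these sums. Fn1 was at a log2 change of 2.01 (adjusted p = 0.00161, edgeR) and Mgp at 1.58 (adjusted p = 0.00643). Fbn1 was at 0.22 (adjusted p = 0.498), Vim at 0.44 (0.131), Tnc at 0.83 (0.101), Dcn at 1.11 (0.161) and Lum at 2.00 (0.0738). Leaving out smooth muscle cells and pericytes too gave 5 calls, against 8.76% of genes, and leaving out cluster 29 besides gave 6, against 8.79%. Leaving out cluster 29 alone moved no member's call (11.6% of genes). Both settings that leave out cluster 29 were chosen after seeing the data.

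Within fibroblasts the sham mice gave 6 to 21 cells, and 1 of them alone reached the minimum of 10 cells, so a test with a minimum of 5 cells per mouse was added after seeing the data. Of the 10 members 2 were higher (Fn1 and Tnc), against 1.6% of the 9889 genes tested, and 2 were lower (Postn and Lum), against 1.48%. Fn1 was at 243.5, 788 and 296.5 CPM in the sham fibroblasts and at 1071, 996 and 1138 CPM in the DOCA-salt ones (1.39 ± 0.37, SE, edgeR adjusted p = 0.0436). Tnc was at 9.74, 62.2 and 98.8 CPM in sham and at 412, 374.5 and 533 in DOCA-salt fibroblasts (3.16 ± 0.49, edgeR adjusted p = 0.000813). Postn was at 409.1, 20.7 and 98.8 CPM in sham and 45.5, 50.6 and 46.9 CPM in DOCA-salt fibroblasts (-2.22 ± 0.45, edgeR adjusted p = 0.00680), and Lum at 1218, 228.0 and 889.4 against 237.1, 185.4 and 244.6 CPM (-1.91 ± 0.40, edgeR adjusted p = 0.00933). The groups overlapped for Postn and Lum, where sham mouse 1 was the highest.

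When 1 mouse was left out, the change of Fn1 stayed at 1.14 to 2.02 and that of Tnc at 2.495 to 4.13, while the calls could be lost. That of Fn1 held without sham mouse 2 and was otherwise lost (adjusted p = 0.0694 to 0.262). It was also lost with DESeq2 size factors (0.0771) or library size alone (0.0709). The call of Tnc was lost without any 1 of the DOCA-salt mice (0.0627 to 0.0796). Those of Postn and Lum were lost without sham mouse 1 (-0.34, adjusted p = 0.849, and -1.35, adjusted p = 0.198) or any 1 DOCA-salt mouse, and that of Postn with DESeq2 (0.227).

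Mgp was at 19140, 14090 and 19250 CPM in sham and 25110, 27150 and 26230 CPM in DOCA-salt fibroblasts (0.56 ± 0.40, edgeR adjusted p = 0.565). For 5 members, Fn1, Mgp, Bgn, Tnc and Fbn1, every DOCA-salt mouse was above every sham mouse, against 19% of genes. Dcn was at 11540, 1472 and 3722 CPM in sham and 1506, 2334 and 1501 CPM in DOCA-salt mice (-1.72, adjusted p = 0.0906), and Sparc (-0.46, adjusted p = 0.736) and Vim (-0.06, adjusted p = 0.967) overlapped as well. The members' median change within fibroblasts was 0.16, against 0.21 over all genes tested there. The groups drew on different fibroblast clusters, whose part in these changes was not tested.

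The fibroblasts fell into 2 clusters, which differed in the members they carried. The first was led by collagen genes with Plac9, Sfrp4, Gsn and Pi16 and held 30 sham and 47 DOCA-salt cells. The second, led by collagen genes with Cdh11 and Colec12, had 775 cells in DOCA-salt kidneys and 6 in sham kidneys. Among DOCA-salt cells Postn was at 515.5 CPM in the first cluster and 21.9 CPM in the second, Lum at 2459 and 92.5 CPM, and Dcn at 8444 and 1476 CPM. Tnc had the opposite order, at 85.0 CPM in the first and 458.6 CPM in the second, and Mgp stood at 15470 and 26960 CPM. Fn1 (1136 and 1059 CPM) and Fbn1 (506.3 and 451.8 CPM) were closer. In the first cluster, which both groups filled, Fn1 was at 246.2 CPM in sham cells and 1136 in DOCA-salt cells. Its sham cells numbered 20, 3 and 7 by mouse, so sham mouse 1 gave most of them, and its DOCA-salt cells 16, 14 and 17. These are pooled values of clusters, given as a description with no test, and mice ranged from 840.4 to 1600 CPM for Fn1 in the DOCA-salt cells of the first cluster.

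Free RNA from broken cells enters droplets, so levels in cells that are not known to make matrix were taken as a background. Mgp was at 29.6, 54.0 and 69.5 CPM in the proximal tubule of DOCA-salt mice and at 36.2, 45.4 and 48.4 in their T and NK cells. In sham mice it was at 3.04, 1.23 and 3.71 CPM in the proximal tubule and at 3.98, 0 and 5.20 CPM in T and NK cells. Mgp was thus raised by a like amount in unrelated cell types. In the proximal tubule 7 of the 9 members tested were higher, against 4.18% of all genes tested there, with Fn1 from 0.492 ± 0.188 to 3.36 ± 0.946 CPM and Mgp from 2.66 ± 1.28 to 51.1 ± 20.16 CPM (SD, n = 3 each). For every 1000 Mgp UMIs the DOCA-salt proximal tubule had 122 to 191 Bgn UMIs, 48.3 to 64.5 Dcn UMIs and 58.9 to 85.0 Fn1 UMIs. Fibroblasts of the same mice had 112 to 152 Bgn UMIs, 57.2 to 86.0 Dcn UMIs and 36.7 to 43.4 Fn1 UMIs. The ranges of Bgn and Dcn overlapped between both types and those of Fn1 did not. Sparc was farther apart, at 553.8 to 825.1 per 1000 Mgp UMIs in the proximal tubule and 168 to 209 in fibroblasts, and so was Vim, at 157.5 to 186.5 and 30.9 to 40.1. The fibroblast markers summed to 16.9 to 28.9 CPM in the sham and 35.9 to 47.8 CPM in the DOCA-salt proximal tubule. Among them Col1a1 was at 0.0862 to 0.457 CPM in sham and 3.58 to 7.04 CPM in DOCA-salt mice. Col3a1 was at 0.108 to 0.457 and 3.96 to 8.35 CPM. The part of these genes in the values above was not tested. Without DOCA-salt mouse 3 the number of members called in the proximal tubule was 4. Values near these proximal tubule levels are called background below. Whether they come from free RNA or from expression in the cells themselves was not tested.

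**Figure D3:**
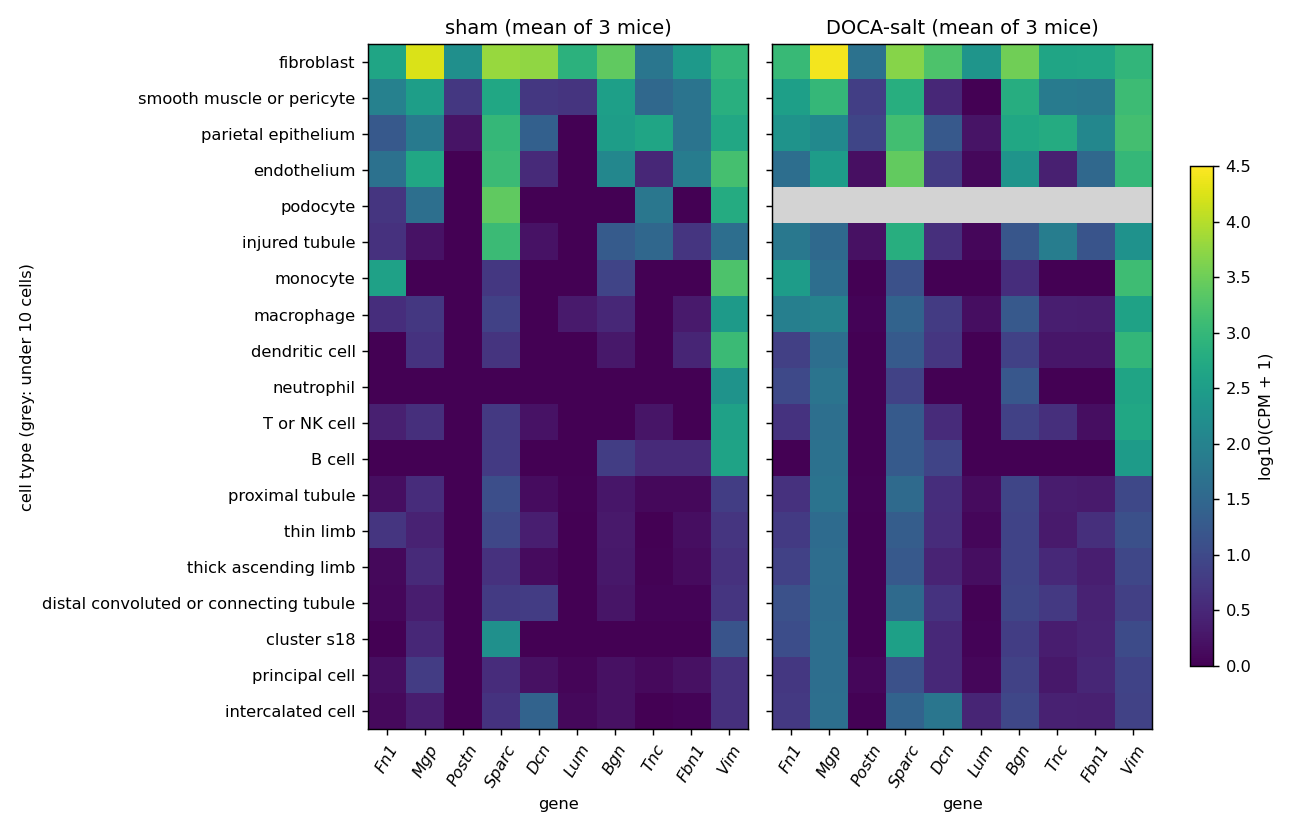
Mean level of each gene (columns) in each cell type (rows) as log10(CPM + 1), sham on the left and DOCA-salt on the right, with grey where a group had under 10 cells. Fibroblasts are bright for most genes, Vim is bright in stromal and immune rows, and the Mgp column turns to a like middle shade in the immune and tubule rows of the DOCA-salt panel.

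Fn1 rose in several cell types to levels above that background. In macrophages Fn1 went from 2.91, 3.78 and 1.87 CPM in sham mice to 108, 51.4 and 104 CPM in DOCA-salt mice. The change was 4.79 ± 0.51 on the log2 scale (SE, edgeR adjusted p = 2.14e-05), and 4 of the 5 members tested in macrophages were higher, against 2.72% of all genes tested there. The change of Fn1 in macrophages exceeded that in the proximal tubule of the same mice by 2.15 ± 0.63 (edgeR with the mouse as a block, adjusted p = 0.0174, where 3.52% of genes were called larger). On log2(CPM + 1) the difference was 2.95, with an exact two-sided permutation p of 0.1, the smallest possible.

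Most macrophages of the 2 groups lay in different clusters. The one led by Ccl4, Cd74 and Ccl3 held 285 of the 420 sham but 141 of the 1749 DOCA-salt macrophages, while the ones led by Cd74, H2-Eb1 and H2-Aa and by H2-Eb1, Cd74 and H2-Aa held 457 and 480 DOCA-salt cells against 11 and 38 sham cells. In the first, Fn1 was at 1.68 CPM in sham and 5.96 CPM in DOCA-salt cells, on 2 and 4 UMIs. Most of the Fn1 of DOCA-salt macrophages lay in few cells. One macrophage cluster of 56 cells, all from DOCA-salt mice and led by Lyz2, Cxcl2, Mmp12 (macrophage elastase), Ccl6 and Ctss, held 698 of the 795 Fn1 UMIs of DOCA-salt macrophages, at 786.2 CPM (351 to 1646 CPM by mouse), with Vim at 1569 CPM. Its marker score, the mean level of a type's markers in SDs from the mean over the clusters compared, was 1.93 for macrophages and 0.826 for monocytes, which carry Fn1 themselves, the highest second score among the macrophage clusters. In the other macrophages Fn1 was at 13.8, 6.76 and 14.3 CPM in DOCA-salt mice, still above the sham values of 1.87 to 3.78 CPM, and the gene no longer passed the filter on low counts. On log2(CPM + 1) the change in these other macrophages exceeded that in the proximal tubule by 0.15 (exact permutation p = 0.8), against 2.95 with the cluster. Mgp, Sparc and Bgn kept their calls in those cells (adjusted p = 9.08e-07, 0.0225 and 0.0119, edgeR), and Vim went from a change of 0.35 to -0.12. Leaving out this cluster was chosen after seeing the data.

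After thinning every cell to 1000 UMIs, 2.17% ± 0.421 of DOCA-salt macrophages had an Fn1 UMI, against 0.186% ± 0.0741 in sham (unthinned 5.21% against 0.936%). The proximal tubule gave 0.338% in DOCA-salt and 0.0607% in sham mice (unthinned 2.63% and 0.363%). The median depth was 4849 UMIs in DOCA-salt and 3882 in sham macrophages, and 7302 and 6201.5 in the proximal tubule. Thinning left out 143 and 12 macrophages of fewer than 1000 UMIs. The 8 fibroblast markers summed to 2.91 to 5.67 CPM in sham macrophages, where Col1a1 and Col3a1 were at 0, and to 19.1 to 29.9 CPM in DOCA-salt macrophages, where 7 of 8 were detected and Scara5 was at 0. Their part in the macrophage values was not tested.

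Sparc, Bgn and Mgp were the other 3 calls in macrophages, and their change exceeded that in the proximal tubule by 0.44, -0.10 and 0.33 (edgeR). On log2(CPM + 1) the differences were 0.29, 0.50 and 0.93 (exact two-sided permutation p = 0.4, 0.4 and 0.3). With the UMIs per cell of the proximal tubule subtracted, Fn1 and Mgp kept their calls (5.01 and 5.09), Bgn did not (adjusted p = 0.191), and Sparc could not be fitted. Without sham mouse 1 there were 2 calls, with Sparc at an adjusted p of 0.159 and Bgn at 0.0912.

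Monocytes carried Fn1 in both groups. They were at 463, 343 and 315 CPM in sham and at 544, 88.2 and 276 CPM in DOCA-salt mice, on 11 to 20 cells per mouse. The groups overlapped, and the change was -0.47 ± 0.44 (SE, edgeR adjusted p = 0.965). After thinning, 20.6% ± 1.93 of sham monocytes and 16.4% ± 10.2 of DOCA-salt monocytes had an Fn1 UMI, the highest shares among the immune cells named here.

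In the parietal epithelium Fn1 was at 16.3, 18.1 and 16.0 CPM in sham and at 153, 106.5 and 350.2 CPM in DOCA-salt mice. The change was 3.53 ± 0.42 (SE, edgeR adjusted p = 0.000209), and 3 of the 8 members tested there were higher (Fn1, Fbn1 and Vim), against 1.81% of all genes tested. The share of these cells with an Fn1 UMI after thinning was 1.72% ± 0.191 in sham and 10.98% ± 5.57 in DOCA-salt mice, with no overlap (exact permutation test, two-sided, p = 0.1, the smallest possible). Unthinned it was 14.1% and 55.5%. The fibroblast markers summed to 157.9 to 176.7 CPM in sham and 211.3 to 377.2 CPM in DOCA-salt cells of this type. Among them Col1a1 was at 0 to 1.60 CPM in sham and 12.3 to 57.7 CPM in DOCA-salt cells, and their part was not tested.

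In the injured tubule, a cluster led by Cp, C3, Sox9 and Vcam1, Fn1 was at 0, 0 and 10.3 CPM in sham and at 73.5, 68.8 and 46.1 CPM in DOCA-salt mice (3.58 ± 0.55, edgeR adjusted p = 0.000407). Without sham mouse 3 the sham mice had no Fn1 UMI in this cluster and the fit gave 9.05. The fibroblast markers summed to 13.3 to 59.7 CPM in sham and 38.97 to 55.5 CPM in DOCA-salt cells. Here 4 of the 7 members tested were higher (Fn1, Mgp, Tnc and Vim), against 2.83% of genes, and 1 was lower, against 4.83%. Cluster s18, which was also led by C3 and Cp, had Fn1 at 0 in the 3 sham mice and at 9.71, 10.7 and 11.6 CPM in DOCA-salt mice. This cluster had too few sham cells to be tested (2, 8 and 14). There 3 UMIs would be 88.8, 19.25 and 16.2 CPM, so the sham zeros do not show a lower level.

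In the distal convoluted or connecting tubule it rose from 0, 0 and 0.590 to 10.6, 9.36 and 15.9 CPM, which the fit put at 5.36 ± 0.61 (edgeR adjusted p = 0.000259), a size that rests on 2 sham mice with no UMI. There 4 of the 5 members tested were higher, against 7.16% of genes, with Mgp, Sparc and Bgn besides. In the thick ascending limb Fn1 went from 0, 0.273 and 0.537 to 8.55, 8.45 and 2.18 CPM (4.57 ± 0.74, edgeR adjusted p = 0.00665), where the third DOCA-salt mouse was within the background. One cluster with 58 DOCA-salt cells, led by Erbb4, Lcn2 and Clu, held 92 of the 125 Fn1 UMIs at 64.4 CPM (10.9 to 80.1 by mouse). It took its name by a marker score of 2.43 for the thick ascending limb against 2.41 for injured tubule, so that it stands between both. Without it, a setting chosen after seeing the data, Fn1 was at 2.45, 1.75 and 1.78 CPM in the DOCA-salt cells of the thick ascending limb, below the proximal tubule of each mouse, and the call was lost (2.87, adjusted p = 0.0596). All 5 members tested in the thick ascending limb were higher, against 1.98% of genes, but with the UMIs per cell of the proximal tubule subtracted 0 were, and without sham mouse 1, DOCA-salt mouse 2 or DOCA-salt mouse 3 the number was 2. With cells of at most 20% mitochondrial UMIs Fn1 was too low to be tested in both types. The fibroblast markers summed to 56.7 to 72.5 CPM in sham and 94.2 to 107.9 CPM in DOCA-salt cells of the distal convoluted or connecting tubule, and to 42.4 to 68.1 and 56.5 to 67.9 CPM in those of the thick ascending limb. In the former Col1a1 was at 0 in sham and 3.055 to 5.60 CPM in DOCA-salt cells, and Col3a1 at 0 to 0.357 and 2.65 to 4.66 CPM. In the latter Col1a1 was at 0.273 to 0.752 CPM in sham and 3.83 to 4.22 CPM in DOCA-salt cells, and Col3a1 at 0.358 to 0.752 and 3.24 to 7.57 CPM. The part of these genes was not tested.

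Smooth muscle cells and pericytes, the contractile cells around vessels, carried Fn1 at 76.9, 47.9 and 153 CPM in sham and at 406.8, 263.5 and 362 CPM in DOCA-salt mice. The change was 1.84 ± 0.29 (SE, edgeR adjusted p = 0.00234), and 4 of the 7 members tested in them were higher (Fn1, Mgp, Bgn and Vim), against 0.996% of all genes tested. Their share of cells went from 1.34% ± 0.290 to 0.989% ± 0.117 (exact permutation p = 0.2). The fibroblast markers summed to 251.2 to 298.7 CPM in sham and 372.8 to 605.1 CPM in DOCA-salt cells of this type, among which Pdgfra was at 0 in sham and Dpt and Scara5 were at 0 in both groups, and their part was not tested. Without DOCA-salt mouse 1 the number of calls was 2, with Bgn at an adjusted p of 0.175 and Vim at 0.0923. The call for Vim was also lost without sham mouse 3 (0.0831), and that for Bgn without sham mouse 1 (0.0944), DOCA-salt mouse 2 (0.0923), or with at most 20% mitochondrial UMIs (0.0739).

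Across the cell types fitted, Fn1 was tested in 10 and higher in 7, and in endothelium it did not pass. It was at 42.2, 46.0 and 51.4 CPM in sham endothelium and 77.6, 16.7 and 31.3 CPM in DOCA-salt endothelium, so that the groups overlapped (-0.19 ± 0.41, edgeR adjusted p = 0.842). Without DOCA-salt mouse 1 it was lower (-0.97, adjusted p = 0.0491), and without DOCA-salt mouse 2 the sign turned (0.21). One endothelial cluster, led by Cldn5, Stmn2, Ptprb and Heg1, held 66.9% of the sham and 72.5% of the DOCA-salt endothelial Fn1 UMIs, at 305.5 CPM in 116 sham cells and 934.1 CPM in 45 DOCA-salt cells. It made up 7.72% of the sham and 2.25% of the DOCA-salt endothelial cells. Of the 9 endothelial clusters with at least 20 cells in both groups, 8 had more Fn1 in DOCA-salt than in sham cells. Fn1 was above the level in the proximal tubule of the same mouse in 6 of 6 mice in endothelium, macrophages, monocytes, parietal epithelium and smooth muscle cells or pericytes (exact sign-flip test, two-sided, p = 0.0312, the smallest that 6 mice allow, adjusted p = 0.0943 over 160 comparisons). In order of their DOCA-salt means the types were fibroblast, smooth muscle or pericyte, monocyte, parietal epithelium, macrophage, injured tubule and endothelium, and each of these ranges overlapped the next except that of fibroblasts.

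**Figure D4:**
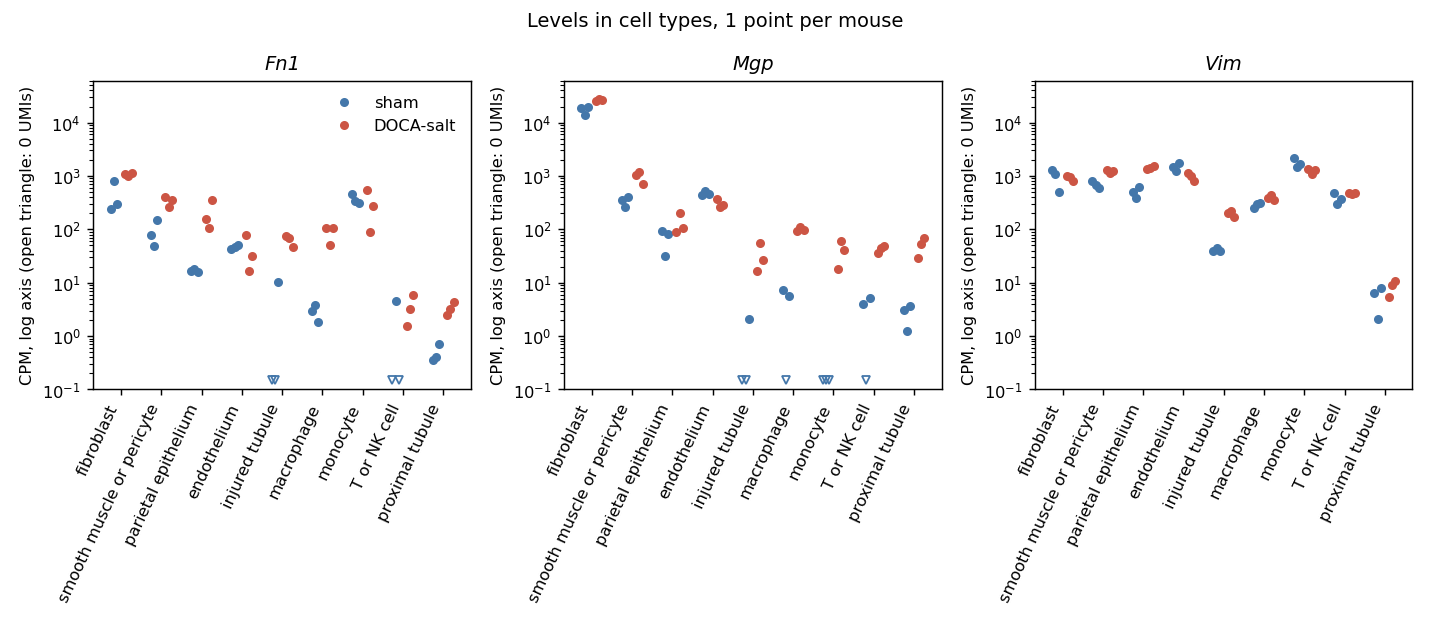
Fn1, Mgp and Vim in 9 cell types, in CPM on a log axis with 1 point per mouse (blue sham, red DOCA-salt) and open triangles for a mouse with no UMI of the gene. Red and blue points separate for Fn1 in macrophages (51.4 to 108 against 1.87 to 3.78), for Mgp also in T and NK cells and the proximal tubule, and for Vim in the parietal epithelium (1331 to 1522 against 381.6 to 614.7).

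Mgp was called higher in 11 of the 13 types in which it was tested, and in most of these it sat at the background level. Outside fibroblasts, the types above the proximal tubule in 6 of 6 mice were smooth muscle cells or pericytes, endothelium and parietal epithelium (exact sign-flip p = 0.0312, adjusted p = 0.0943). In smooth muscle cells or pericytes Mgp was at 350.5, 256.5 and 395.5 CPM in sham and 1049, 1211 and 721.8 CPM in DOCA-salt mice (1.53 ± 0.21, SE, edgeR adjusted p = 0.000934). In macrophages it was at 7.28, 0 and 5.598 CPM in sham and 93.0, 111.5 and 98.9 CPM in DOCA-salt mice (4.35 ± 0.36, edgeR adjusted p = 1.41e-06). That was above the proximal tubule in 5 of 6 mice (exact sign-flip p = 0.219), every DOCA-salt mouse among them. The mouse below was sham mouse 2, which had no Mgp UMI in macrophages. Cluster s18 had 0, 6.42 and 0 CPM in sham and 16.9, 45.6 and 63.7 CPM in DOCA-salt mice, close to the proximal tubule of the same mice.

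In endothelium Mgp ran the other way, from 448.3, 528.6 and 458.6 CPM in sham to 366.1, 262.2 and 287.3 CPM in DOCA-salt mice. The change was -0.66 ± 0.14 (SE, edgeR adjusted p = 0.0152), and 2 of the 7 members tested in endothelium were lower (Mgp and Fbn1), against 4.56% of all genes tested, and 2 were higher (Sparc and Bgn), against 5.04%. The change in endothelium was smaller than that in the proximal tubule of the same mice for 7 of the 8 members tested (edgeR with the mouse as a block, where 5.73% of genes were called smaller). The proximal tubule is read here as background and began far lower (Mgp at 2.66 against 478.5 CPM in sham endothelium). On log2(CPM + 1) the difference reached the smallest exact permutation p, 0.1, for Fn1, Mgp, Bgn, Fbn1 and Vim, and not for Dcn (-0.29, p = 1.0) or Tnc (-1.17, p = 0.2). Without sham mouse 3 or DOCA-salt mouse 2, 1 was higher and 1 lower. Without DOCA-salt mouse 1, 1 was higher, and without DOCA-salt mouse 3, 1 was lower. The Mgp call depended on the choice of cells. Without doublet removal the change was 0.99 (adjusted p = 0.0151), that is, higher in DOCA-salt mice, and without sham mouse 3, DOCA-salt mouse 2 or DOCA-salt mouse 3 the adjusted p was 0.0650, 0.0688 and 0.0769.

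Of the endothelial Mgp UMIs, 88.9% in sham and 42.4% in DOCA-salt mice lay in the cluster led by Cldn5, Stmn2, Ptprb and Heg1, at 4158 CPM in 116 sham cells and 4207 CPM in 45 DOCA-salt cells. Of the 9 endothelial clusters with at least 20 cells in both groups, 8 had more Mgp in DOCA-salt than in sham cells, such as 118.3 against 16.1 CPM in the one led by Fabp4, Flt1 and Plvap. The background in the proximal tubule was also higher, at 29.6 to 69.5 against 1.23 to 3.71 CPM. Its part in the cluster values was not tested. A cluster of shallow endothelial cells (128 cells, 120 of them DOCA-salt) was at 4613 CPM in the DOCA-salt cells, with 218.6 to 7739 CPM by mouse.

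Vim stood at sham means of 203.7 CPM (neutrophils) to 1783 CPM (monocytes) in stromal, endothelial and immune cells. In the proximal tubule, thin and thick limbs, distal or connecting tubule, principal and intercalated cells its sham means were 3.13 to 5.49 CPM. It rose in the parietal epithelium from 510.4, 381.6 and 614.7 CPM in sham to 1331, 1380 and 1522 CPM in DOCA-salt mice (1.47 ± 0.18, SE, edgeR adjusted p = 0.000233). The thinned share of these cells with a Vim UMI was 34.5% ± 4.32 in sham and 59.6% ± 1.42 in DOCA-salt mice. In the injured tubule Vim was at 39.9, 44 and 39.1 CPM in sham and 202.7, 219.8 and 169.6 CPM in DOCA-salt mice (2.18 ± 0.22, edgeR adjusted p = 1.02e-05). In smooth muscle cells or pericytes it was at 798.6, 679.6 and 603.0 CPM in sham and 1313, 1148 and 1257 CPM in DOCA-salt mice (0.80 ± 0.16, edgeR adjusted p = 0.0118). The groups did not overlap in any of the 3.

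In the proximal tubule Vim was at 6.28, 2.07 and 8.13 CPM in sham and 5.52, 9.05 and 10.95 CPM in DOCA-salt mice, which overlapped (0.56 ± 0.43, edgeR adjusted p = 0.482). In endothelium it was at 1443, 1240 and 1716 CPM in sham and 1122, 1013 and 807.6 CPM in DOCA-salt mice, and the change of -0.59 ± 0.17 just missed the threshold (edgeR adjusted p = 0.0537). That p fell under 0.05 with library size in place of TMM (0.0480), with DESeq2 (0.0133), without a filter on low counts (0.00596) and without sham mouse 2 (0.0128). Of the 9 endothelial clusters with at least 20 cells in both groups, 7 had more Vim in DOCA-salt than in sham cells. Macrophages (0.35 ± 0.16, edgeR adjusted p = 0.244) and monocytes (-0.54 ± 0.25, edgeR adjusted p = 0.895) did not pass. Vim was called higher in 4 of the 16 types in which it was tested and lower in 0. The 4th was the thick ascending limb, at 3.43 ± 0.579 and 8.21 ± 1.605 CPM (1.25 ± 0.25, edgeR adjusted p = 0.0219), levels close to those of the proximal tubule.

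Sparc was called higher in 7 of 11 types and lower in 1. Of the 7, endothelium alone was above the level in the proximal tubule (21.6, 44.6 and 38.5 CPM in DOCA-salt mice) in every mouse, and the others were read as background. In endothelium it rose from 1394, 947.6 and 1217 CPM to 2394, 3081 and 2406 CPM (1.14 ± 0.18, SE, edgeR adjusted p = 0.00288), and all 9 endothelial clusters with at least 20 cells in both groups had more Sparc in the DOCA-salt cells. The fibroblast markers summed to 14.3 to 16.7 CPM in sham and 25.6 to 49.8 CPM in DOCA-salt endothelium, with Col1a1 at 0 to 2.69 and 5.33 to 14.1 CPM, and their part in the endothelial values of Sparc and Bgn was not tested. In the injured tubule it fell from 1515, 858.0 and 1118 CPM to 651.1, 720.4 and 604.1 CPM (-0.90 ± 0.20, edgeR adjusted p = 0.00824), a call lost without sham mouse 1 (adjusted p = 0.0653), DOCA-salt mouse 1 (0.0513) or DOCA-salt mouse 3 (0.0829). Podocytes of the sham mice were at 2596, 1885 and 3219 CPM on 2 to 11 cells. In macrophages, where Sparc was called higher, its level was below that of the proximal tubule in 6 of 6 mice, and the call was lost without sham mouse 1 or 2 (adjusted p = 0.159 and 0.0640).

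Bgn was called higher in 8 of 10 types tested. Of these the proximal tubule (4.73, 10.3 and 8.49 CPM in DOCA-salt mice), the distal convoluted or connecting tubule (5.30, 11.3 and 6.22 CPM), the thick ascending limb (3.83, 9.47 and 8.00 CPM), the thin limb (6.36, 10.55 and 4.15 CPM) and intercalated cells (3.11, 14.3 and 7.11 CPM) were at background level. Endothelium and smooth muscle cells or pericytes were above it in 6 of 6 mice and macrophages in 5 of 6. In endothelium it was at 161.0, 79.99 and 116.5 CPM in sham and 216.3, 249 and 165 CPM in DOCA-salt mice (0.81 ± 0.22, SE, edgeR adjusted p = 0.0426), a call lost when 1 of sham mouse 3 and DOCA-salt mice 1 and 2 was left out (0.121, 0.112 and 0.140). Parietal epithelium had 359, 175.5 and 423 CPM in sham and 411.5, 577.5 and 442.6 in DOCA-salt mice, which overlapped. Tnc was high in the parietal epithelium of both groups, at 389, 585.5 and 373 CPM in sham and 542, 599 and 601.7 CPM in DOCA-salt mice (0.34 ± 0.17, edgeR adjusted p = 0.357). In the injured tubule Tnc was at 22.1, 53.4 and 18.5 CPM in sham and 77.5, 73.7 and 85.4 CPM in DOCA-salt mice (1.28 ± 0.30, edgeR adjusted p = 0.0127). That call was lost without sham mouse 1 (0.0603) or sham mouse 3 (0.157), and with at most 20% mitochondrial UMIs the change was -0.04.

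Fbn1 went in opposite directions in 2 cell types that are both above background. It fell in endothelium from 64.8, 71.5 and 93.6 CPM to 40.06, 27.09 and 30.4 CPM (-1.25 ± 0.19, SE, edgeR adjusted p = 0.00229). It rose in the parietal epithelium from 58.5, 48.7 and 54.4 CPM to 137.5, 98.2 and 130.9 CPM (1.15 ± 0.20, edgeR adjusted p = 0.00281). In smooth muscle cells or pericytes the groups overlapped (0.26 ± 0.23, edgeR adjusted p = 0.715). Both calls and directions held under the alternative settings that were run. The endothelial cells of the groups lay in different clusters, such as 395 sham and 98 DOCA-salt cells in the one led by Emcn, Flt1 and Plvap and 37 and 569 in the one led by Fabp4, Flt1 and Plvap. Of the 9 endothelial clusters with at least 20 cells in both groups, 7 had less Fbn1 in DOCA-salt cells and 2 more. In the 3 with the most Fbn1 its levels were close, at 193.5 and 162.6 CPM (led by Cldn5, Stmn2 and Ptprb), 116.8 and 115 CPM (Cldn5, Aqp1 and Slc14a1) and 84.5 and 78.3 CPM (Tm4sf1, Meis2 and Ebf1) in sham and DOCA-salt cells, and the ranges over mice overlapped. These 3 held 116, 235 and 294 sham and 45, 184 and 160 DOCA-salt cells.

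Dcn was above the proximal tubule level in some cells outside the stroma. Intercalated cells, which secrete acid or base in the collecting duct, held it at 29.9, 27.5 and 22.1 CPM in sham and 72.75, 49.1 and 50.7 CPM in DOCA-salt mice (1.15 ± 0.18, SE, edgeR adjusted p = 0.00477). In these cells 4 of the 5 members tested were higher, against 3.53% of genes. With cells of at most 20% mitochondrial UMIs the change was 0.19 (adjusted p = 0.874). The 8 fibroblast markers summed to 7.79 to 16.0 CPM in sham and 17.97 to 25.2 CPM in DOCA-salt intercalated cells, with Col1a1 at 0 to 0.495 and 3.46 to 4.89 CPM and Col3a1 at 0 to 0.495 and 3.11 to 6.00 CPM, and their part in these calls was not tested. The Dcn UMIs came mainly from the cluster led by Slc26a4 and Slc4a9, at 47.4 CPM in 446 sham cells and 140.6 CPM in 373 DOCA-salt cells, while the proximal tubule was at 0.389 and 2.84 CPM. Another cluster, with 351 of the 2047 intercalated cells, took its name by a marker score of 2.652 against 2.65 for principal cells. It thus stands between both, and its part in the calls was not tested. For every 1000 Mgp UMIs the DOCA-salt intercalated cells had 870 to 2864 Dcn UMIs, against 48.3 to 64.5 in the proximal tubule. The parietal epithelium also held Dcn, at 21.8, 19.3 and 28.8 CPM in sham and 11.2, 29.4 and 11.6 CPM in DOCA-salt mice, which overlapped (-0.36 ± 0.38, SE, edgeR adjusted p = 0.713). Postn passed the filter on low counts in 0 types and Lum in 1, the proximal tubule. Outside fibroblasts Postn was at 7.50, 1.91 and 3.92 CPM in sham and 6.64, 1.497 and 9.73 CPM in DOCA-salt smooth muscle cells or pericytes. In the parietal epithelium it was at 0, 2.27 and 0 CPM in sham and 2.24, 0 and 20.53 CPM in DOCA-salt mice, so that 1 mouse held most of it.

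**Figure D5:**
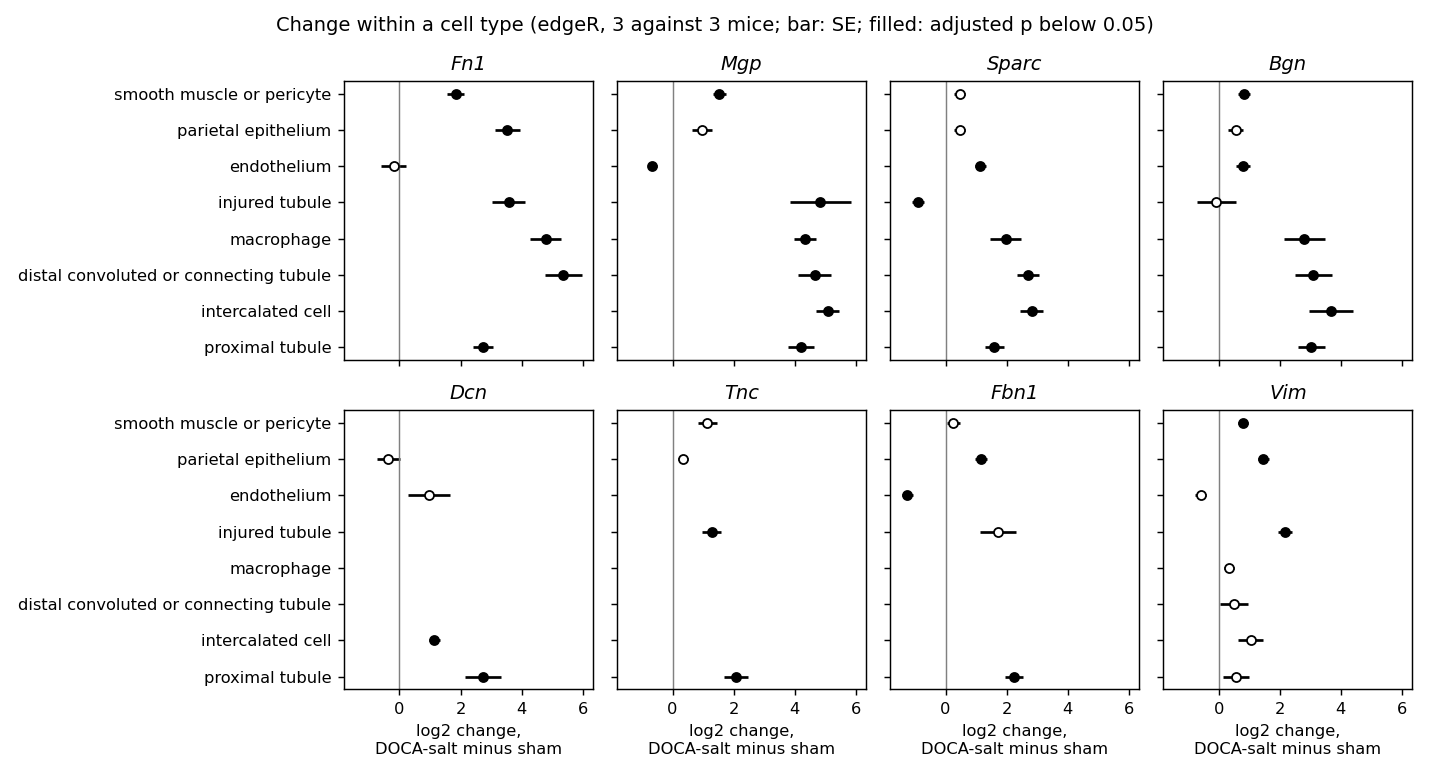
Log2 change of 8 genes (DOCA-salt minus sham, points with SE bars) within 8 cell types, filled where the adjusted p was below 0.05 and absent where the gene was too low to test. Fn1 lies right of 0 in every type shown but endothelium (-0.19), Fbn1 lies left of 0 in endothelium (-1.25) and right in the parietal epithelium (1.15), and Sparc lies left of 0 in the injured tubule (-0.90).

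Other genes of the matrix were counted in the whole kidney against the 11.5% of all genes called higher there. Their lists were also chosen with earlier results of these data known, so the counts are descriptive and test no enrichment. Of 15 other genes of elastic fibers and microfibrils 5 did not pass and 10 were higher, among the latter Fbn2 (6.69 ± 0.38 on the log2 scale, from 0.102 to 11.7 CPM), the latent TGF-beta binding protein Ltbp2 (6.14 ± 0.38), the microfibril protein Mfap5 (4.40 ± 0.58) and Emilin1 (2.89 ± 0.24). Of the 7 further small leucine-rich proteoglycans tested 5 were higher and 2 did not pass, with Prelp at 4.27 ± 0.39, Ogn at 1.71 ± 0.25, Aspn at 1.62 ± 0.24 and Fmod at 0.88 ± 0.24. Of 13 further matricellular proteins 8 were higher and 5 did not pass, with Smoc2 at 4.96 ± 0.57, Tgfbi at 2.07 ± 0.22, osteopontin (Spp1) at 1.95 ± 0.29 and Ccn2 at 1.88 ± 0.23. Of the 9 cross-linking enzymes, which join collagen and elastin chains, 7 were higher and 2 did not pass, with the lysyl oxidases Loxl2 (3.14 ± 0.34), Loxl1 (3.05 ± 0.22), Lox (2.47 ± 0.21) and Loxl3 (2.11 ± 0.24). Adjusted p for the genes named ran from 0.000183 to 0.0397 (edgeR).

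Of 11 receptors for the matrix 7 were higher and 4 did not pass, with integrin subunits Itgb3 (1.51 ± 0.20), Itgb5 (1.15 ± 0.16) and Itga5 (0.93 ± 0.22), the last of which pairs with Itgb1 to bind fibronectin, and the hyaluronan receptor Cd44 (1.11 ± 0.19), at adjusted p of 0.00215 to 0.0213 (edgeR). The vitamin K cycle, which Mgp needs, had 0 of 3 genes higher, and Vkorc1 was lower (67.7 ± 2.57 to 56.2 ± 1.86 CPM, -0.38 ± 0.08, edgeR adjusted p = 0.0173). The median changes of the lists ran from 0.09 for the vitamin K cycle to 1.43 for elastic fibers, against -0.02 over all genes. Within single cell types the calls went both ways. Of 5 matricellular proteins tested in smooth muscle cells or pericytes 4 were higher (against 0.996% of genes), as were 3 of 7 cross-linking enzymes in the parietal epithelium (against 1.81%), while 3 of 6 elastic fibre genes in the injured tubule were lower (against 4.83%) and 0 higher. Of the receptors 3 of 7 were higher in T and NK cells (against 1.1%), 3 of 7 in the distal convoluted or connecting tubule (against 7.16%) and 3 of 6 in principal cells (against 4.18%). In macrophages 1 of 9 receptors was higher (against 2.72%) and 3 were lower (against 2.92%), and in endothelium 0 of 10 were higher (against 5.04%) and 3 lower (against 4.56%).

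Over the 39 means of cell type and group with at least 10 cells, the genes whose log2(CPM + 1) was most like that of Fn1 were Ecm1 (Pearson r = 0.839), Bgn (0.785), Fam20a (0.777), Rras (0.767) and Lrp1 (0.764). For Mgp they were Col3a1 (0.895), Col1a2 (0.884), Pcdh9 (0.844), Col1a1 (0.843) and Timp1 (0.841), and for Vim they were Emp3 (0.972), Ggta1 (0.898), Map4k4 (0.889), Crlf2 (0.87) and Asap1 (0.869). Among the members, Bgn and Fbn1 (0.91) and Postn and Lum (0.911) were the most alike pairs, and Vim was the least like the rest (0.115 with Dcn to 0.568 with Fn1). The points share libraries and free RNA, so these values describe the pattern and are given with no test.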

How the data were processed

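Droplet single-cell RNA sequencing of kidney cells from 6 mice was analysed. The deposited tables hold raw counts (UMIs per gene and barcode) that the authors made with Cell Ranger, version 9.0.0 per the labels and 8.0.1 per the file headers, against GRCm39, without normalization. Barcodes with at least 170 genes and 500 UMIs, at most 50% mitochondrial and 5% haemoglobin UMIs were kept, and the highest Scrublet scores (0.8% per 1000 barcodes) were removed as doublets, 4931 cells. Cells were clustered with scanpy 1.11.5 (2000 variable genes without the members or listed genes, 30 components, 15 exact neighbours, Leiden resolution 1), and immune and stromal cells were clustered again. Clusters were named from marker lists. UMIs were summed per mouse and type (at least 10 cells in at least 2 mice per group, or 5 cells for fibroblasts, added after seeing the data) and tested with edgeR 4.0.16 (quasi-likelihood, TMM, filterByExpr, Benjamini-Hochberg over all genes, threshold 0.05), without a replicate block. Levels against the proximal tubule were compared with exact sign-flip tests, and shares of cells with exact permutation tests after thinning to 1000 UMIs. The change in a type was set against that in the proximal tubule with the mouse as a block. For smooth muscle cells or pericytes that fit gave an implausibly large prior degrees of freedom, so its p-values are not reported. On simulated data for the whole kidney 95% of 4-fold and 66% of 2-fold changes were recovered among 19658 genes. The replicate numbers did not pair the mice. A count of 0 allows up to 3 UMIs in that library (counting error only). Named genes were the 10 members, per list up to 4 genes with the largest whole-kidney change among those called and not overlapping, and the 5 genes most correlated with Fn1, Mgp and Vim. The members and the lists were chosen with earlier results of these data known. Alternatives are given in the closing section.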

Additional observations from a re-analysis of the deposited data

Results flagged for a closer look

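Several members had a larger or smaller log2 change in a cell type than in the proximal tubule (edgeR with the mouse as a block), whose values are read as background. The change of Fn1 in macrophages exceeded that in the proximal tubule by 2.15, where no p-value of the fit is reported. On log2(CPM + 1) the excess was 2.95 (exact permutation p = 0.1, the smallest possible), and 0.15 without the 56 cells of 1 macrophage cluster. In endothelium the change was smaller than in the proximal tubule by -3.05 for Fn1 (adjusted p = 0.00392), -4.81 for Mgp (1.11e-05), -1.70 for Dcn (0.0434), -2.21 for Bgn (0.000482), -2.64 for Tnc (0.0339), -3.42 for Fbn1 (3.88e-05) and -1.20 for Vim (0.0403), where 5.73% of genes were called smaller. On log2(CPM + 1) with an exact permutation test the differences for Dcn and Tnc were -0.29 (p = 1.0) and -1.17 (p = 0.2), and those of the other 5 reached 0.1, the smallest possible. Sham levels were unequal (Mgp at 478.5 CPM in endothelium and 2.66 in the proximal tubule), and in endothelium itself the changes of Mgp, Fbn1 and Vim were -0.66, -1.25 and -0.59.

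The genes Mgp, Sparc and Fbn1 were called lower in 1 cell type, with no overlap between the groups, and higher in others, most of which are at background level. Mgp was at -0.66 in endothelium and called higher in 11 other types, Sparc at -0.90 in the injured tubule and called higher in 7 others, and Fbn1 at -1.25 in endothelium and called higher in 2 others. The Mgp change in endothelium was 0.99 without doublet removal, and 8 of 9 endothelial clusters had more Mgp in DOCA-salt cells. The Mgp background was higher in DOCA-salt mice as well, and its part in these clusters was not tested. These differences between types were not tested as such, apart from the endothelial ones against the proximal tubule.

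Cluster 29 entered no comparison between groups within a type, because 616 of its 624 cells came from DOCA-salt mouse 2. Mgp was at 697 CPM in the cells of that mouse, against 54.0 CPM in the proximal tubule of the same mouse and 1.23 to 3.71 CPM in that of the sham mice.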

How the results depend on the processing

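The members called higher in the whole kidney numbered 10, against 11.5% of all genes, and 5 (8.58%) without fibroblasts, 5 (8.76%) without fibroblasts, smooth muscle cells and pericytes, and 6 (8.79%) without these and cluster 29, a setting chosen after seeing the data. With the proximal tubule UMIs per cell subtracted the counts were 2 in place of 4 in macrophages, 1 in place of 2 (higher) in endothelium, 2 in place of 4 in the distal convoluted or connecting tubule and 0 in place of 5 in the thick ascending limb. With a replicate block they were 2 in place of 4 in smooth muscle cells or pericytes, 1 in place of 2 (higher and lower) in endothelium, 3 in place of 7 in the proximal tubule and 2 in place of 5 in the thick ascending limb. The numbers do not pair the mice (correlations of same-numbered deviations -0.018, -0.413 and -0.047). Without a filter on low counts the parietal epithelium had 5 in place of 3. At most 20% mitochondrial UMIs left 1 higher in endothelium and 2 in the thick ascending limb, and no doublet removal gave 5 higher and 1 lower in endothelium. When 1 mouse was left out, counts ran from 9 to 10 in the whole kidney, 2 to 4 in macrophages and in smooth muscle cells or pericytes, 1 to 3 (higher) and 1 to 3 (lower) in endothelium, 4 to 8 in the proximal tubule, 3 to 4 in the parietal epithelium, 3 to 4 (higher) and 0 to 1 (lower) in the injured tubule, 4 to 4 in the distal convoluted or connecting tubule and 2 to 5 in the thick ascending limb. Signs turned for Mgp in endothelium without doublet removal (0.99), and for Fn1 there when 1 mouse was left out (-0.97 to 0.21), without doublet removal (0.75) and at Leiden resolution 2 (0.0104). In the injured tubule they turned for Bgn when 1 mouse was left out (-0.63 to 1.18) and with library size only (0.0136), and for Tnc (-0.0405) and Fbn1 (-0.10) with at most 20% mitochondrial UMIs. They also turned for Vim in macrophages without the cluster that held most of the Fn1 (-0.12), for Vim in the distal convoluted or connecting tubule without doublet removal (-0.16) and for Bgn in the thick ascending limb after subtraction (-0.17). The causes were not tested. DESeq2 size factors changed no call outside fibroblasts. Some settings could not be fitted: neutrophils at 20% mitochondrial UMIs, and Sparc in macrophages after subtraction. In fibroblasts, with a minimum of 5 cells chosen after seeing the data, 2 members were higher and 2 lower. With DESeq2 size factors or library size only 1 was higher, with the DESeq2 Wald test or without doublet removal 1 was lower, and when 1 mouse was left out 0 to 2 were higher and 0 to 3 lower. Signs turned there for Vim when 1 mouse was left out (-0.27 to 0.363), without a filter (0.104), with the replicate block (0.0345), at 20% mitochondrial UMIs (0.437) and without doublet removal (0.0972), and for Sparc when 1 mouse was left out (-0.79 to 0.196) and without doublet removal (0.167).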
